A study of Rattus norvegicus with 6 samples.

Results

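The bone marrow cells described here were enriched for c-kit, which binds stem cell factor, from 3 ACI rats that received phosphate-buffered saline (PBS) alone, so they give the steady state against which the study set its stressed marrow. They are the 3 libraries whose labels name PBS as the treatment, PBS1, PBS2 and PBS3, out of 6 libraries in all, and the other libraries, from rats given phenylhydrazine (PHZ), were not used. All 3 rats were 6 to 8 weeks old, received the injection into the peritoneum and were killed 36 h later. Hind-leg marrow was stained with a biotinylated c-kit antibody and selected with streptavidin particles in a column-free system (EasySep), and poly(A) RNA was sequenced. The labels give PBS1 and PBS3 as female and PBS2 as male, and no genotype, transgene or other agent. Genes were ranked by their mean FPKM (fragments per length of transcript and per library depth), a length-corrected level that allows genes to be compared within a library, and spreads are the SD over the 3 rats.

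c-kit is carried by haematopoietic stem cells, by the committed progenitors of all blood lineages, by early erythroid cells and, for life, by mast cells. It is lost as erythroid and myeloid cells mature. Late erythroblasts therefore carry globin, haem and membrane genes without c-kit. Neutrophils pass from a primary granule programme (myeloperoxidase, elastase) in promyelocytes to a later programme as they mature. The later genes (S100 proteins, gelatinase, cathelicidin) are grouped here under the name late granule. In the marrow, erythroblasts mature in islands around a central macrophage.

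PBS1 stood apart from the other libraries and carried Y-linked transcripts although its label gives female. The Y-linked gene Eif2s3y had 35.9 FPKM in PBS1, labelled female, and 0 in PBS2 and in PBS3. Ddx3, which RefSeq names Ddx3y, had 32.4 FPKM in PBS1 and 0 in both others. PBS2, labelled male, thus had no FPKM for either gene. Xist, the X-inactivation transcript, found no gene under its name and could not be read beside them. Depth was nearly equal, at 15707010, 16260317 and 16014229 expected counts in PBS1, PBS2 and PBS3, and between 15537 and 15830 genes were listed per library. On log2(FPKM + 1) over 16740 genes, Pearson's r was 0.964 between PBS1 and PBS2, 0.968 between PBS1 and PBS3 and 0.988 between PBS2 and PBS3, as a description across genes, which are not independent replicates, in libraries of similar depth. Results that rest on PBS1 are given with its own value beside the others, and the source of the mismatch was not tested. Because PBS1 alone carried these Y-linked transcripts, its other differences cannot be told apart from a difference in sex.

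The transcript pool was concentrated in a small number of genes, with globin in the lead. Of 16740 genes and numbered loci listed in at least 1 PBS library, 11412 reached 1 FPKM in all 3, 725 in 2, 986 in 1 and 3617 in none. The 77 genes with a mean of at least 1000 FPKM held 54.2% of the summed mean FPKM, while the 6355 genes between 1 and 10 FPKM held 3.5%. The top 10 genes held 36.9% of summed FPKM in PBS1, 33.9% in PBS2 and 49.9% in PBS3, a mean of 40.2% ± 8.52 (SD, n = 3). The 100 most abundant genes held 56.5% ± 6.28, and 49 genes made up 50% of the pool. With the globin genes left out, 258 genes were needed for 50% and the top 10 held 14.0% ± 2.05, so most of the concentration lay in globin.

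**Figure D1:**
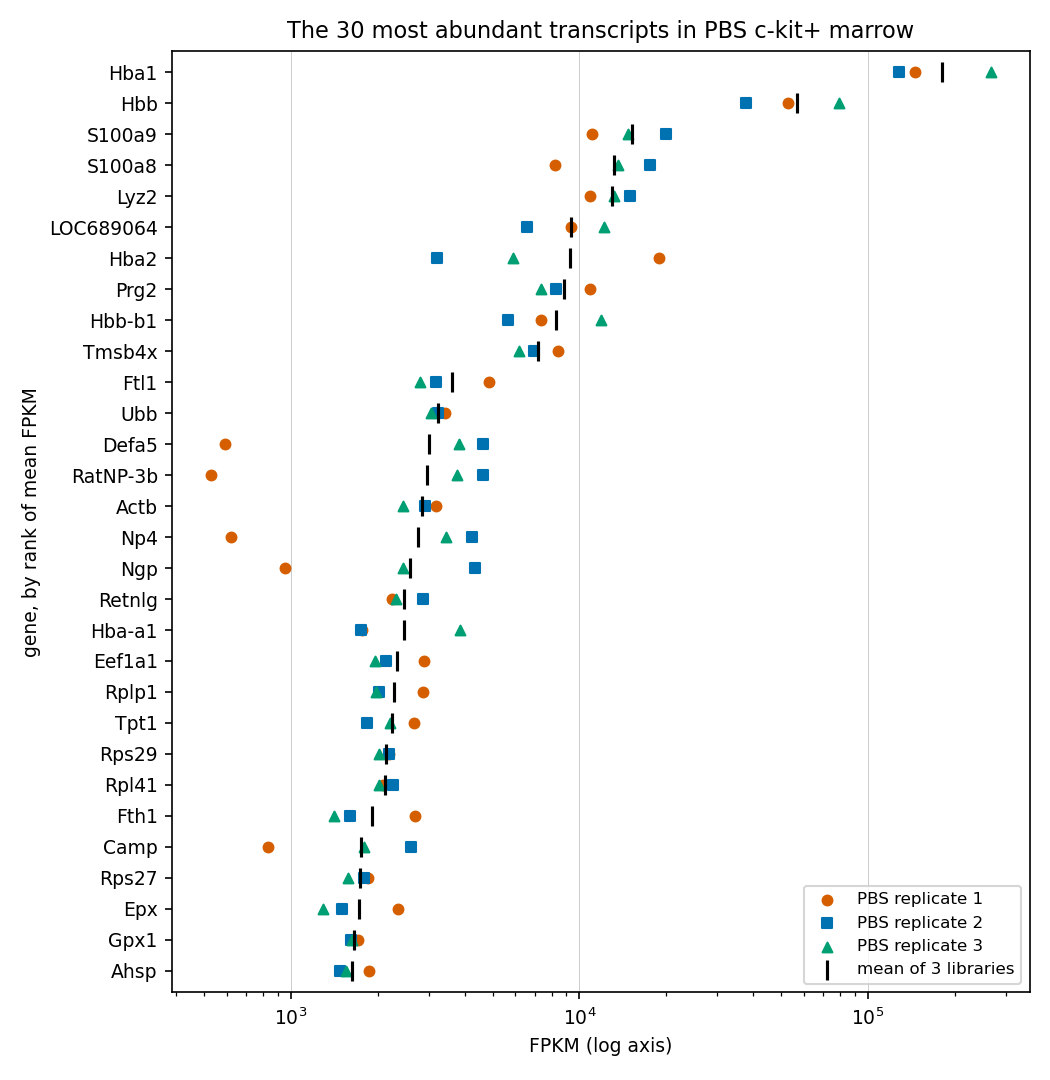
FPKM (log axis) of the 30 transcripts with the highest mean, 1 row per gene, with a symbol for each PBS library and a bar for the mean. Hba1 lies between 128640 and 266725 FPKM, and the defensins Defa5, RatNP-3b and Np4 and the granule genes Ngp and Camp show PBS1 far to the left of the other libraries.

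Alpha globin led every library. Hba1, named Hba-a1 by RefSeq and coding for the alpha chain of haemoglobin, had 145574 FPKM in PBS1, 128640 in PBS2 and 266725 in PBS3, a mean of 180313 ± 75313 (SD, n = 3). Hbb, a beta globin gene, ranked next, with 52710, 37939 and 79482 FPKM in the same order of libraries. PBS3 was the highest and PBS2 the lowest library for both, and the ratio of Hba1 to Hbb stayed between 2.76 and 3.39. Further beta globin loci followed the same order, LOC689064 (Hbb-bs in RefSeq) with 9361, 6584 and 12184 FPKM and Hbb-b1 with 7338, 5657 and 11833 FPKM. Hba2 (Hba-a2 in RefSeq) broke it, with 18820 FPKM in PBS1, 3209 in PBS2 and 5875 in PBS3, so that Hba1 exceeded Hba2 by 7.73 times in PBS1 and by 40.1 and 45.4 times in the others. Ahsp, the chaperone of free alpha globin, was even across libraries at 1633 ± 203 FPKM, and the embryonic and fetal-type genes were low, Hbe1 at 2.46 FPKM, Hbg1 at 0.48 and Hbz at 0.23 in PBS2 and 0 in the other libraries.

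The globin genes are copies within multigene families, so the separate levels of the copies are uncertain, and whether reads were divided wrongly between them was not tested. Their promoters are shown because these genes lead the pool. In the RefSeq windows of build GRCr8, the 250 bases before the start of Hba1 and Hba2 were 96.4% identical, and those of Hbb-b1 and LOC689064 were 94.0% identical, against 68.6% for Hba1 and the gene the authors name Hba-a1 (Hba-a3 in RefSeq) and 64.6% for Hbb and Hbb-b1. The 150 bases before each start are printed 5′ to 3′ on the coding strand, all from the minus strand of chr10:15842581-15842730 (Hba1), chr10:15829139-15829288 (Hba2), chr10:15816944-15817093 (Hba-a1), chr1:167663722-167663871 (Hbb), chr1:167643521-167643670 (Hbb-b1) and chr1:167631631-167631780 (LOC689064). Capitals mark the CCAAT box, the TATA box searched as TATAAA and the CACCC box on either strand, elements long known from globin promoters.
Hba1: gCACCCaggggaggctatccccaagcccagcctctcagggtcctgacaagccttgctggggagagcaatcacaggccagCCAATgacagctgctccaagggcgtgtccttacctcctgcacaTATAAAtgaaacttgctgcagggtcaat
Hba2: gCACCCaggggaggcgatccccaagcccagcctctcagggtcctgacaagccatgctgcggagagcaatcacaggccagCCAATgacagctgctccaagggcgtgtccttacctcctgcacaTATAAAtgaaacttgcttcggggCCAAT
Hba-a1: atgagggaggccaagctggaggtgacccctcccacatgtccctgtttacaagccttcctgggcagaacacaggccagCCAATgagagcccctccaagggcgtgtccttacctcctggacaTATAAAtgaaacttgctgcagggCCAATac
Hbb: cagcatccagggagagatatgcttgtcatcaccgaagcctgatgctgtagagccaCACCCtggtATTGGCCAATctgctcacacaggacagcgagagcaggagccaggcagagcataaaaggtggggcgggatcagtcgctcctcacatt
Hbb-b1: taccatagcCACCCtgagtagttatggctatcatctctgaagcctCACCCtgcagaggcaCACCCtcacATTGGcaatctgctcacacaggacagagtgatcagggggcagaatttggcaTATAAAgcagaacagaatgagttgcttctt
LOC689064: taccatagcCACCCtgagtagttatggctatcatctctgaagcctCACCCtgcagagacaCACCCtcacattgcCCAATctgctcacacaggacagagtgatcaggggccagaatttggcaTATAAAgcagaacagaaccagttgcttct

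All 6 windows hold CCAAT, 5 hold TATAAA and 5 hold CACCC, while among 33469 RefSeq promoter windows of the same length 23.5% hold CCAAT, 8.0% hold TATAAA and 35.2% hold CACCC on either strand. TATAAA lies 28 bases before the start of Hba1 and of Hba2 and 30 bases before that of Hbb-b1. These matches describe letters and do not show that a factor binds. Hba1 and Hba2, with nearly the same promoter window, differed in their order across the libraries, as given above. The windows are reference sequence, the same for all 3 libraries, so they cannot tell why libraries differ.

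**Figure D2:**
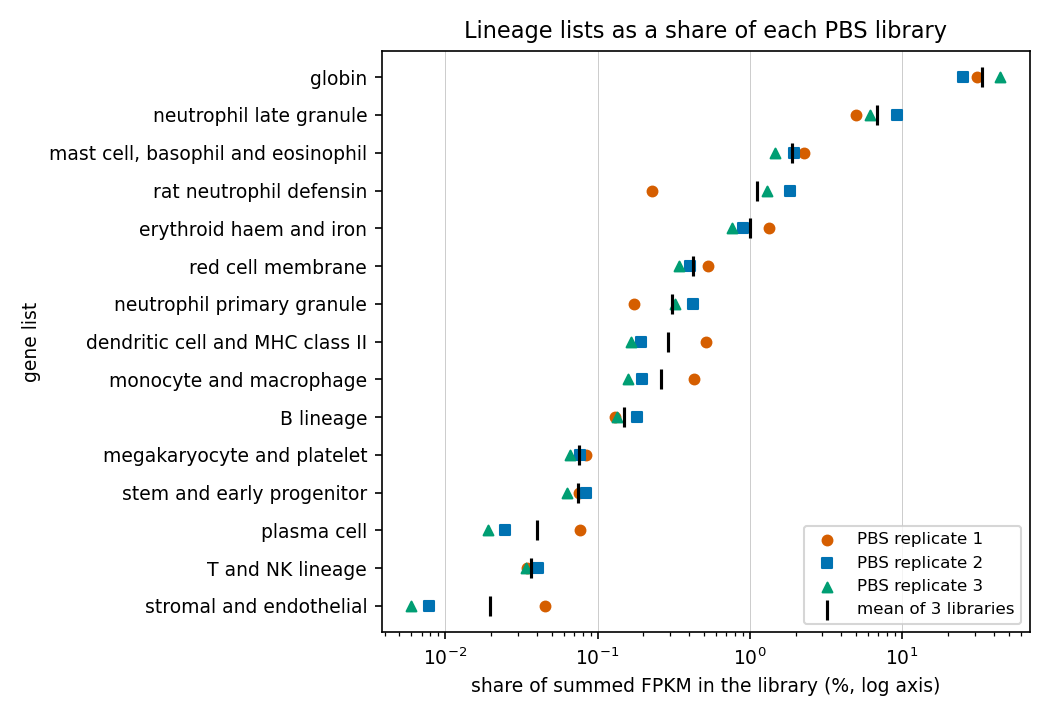
Share of each library's summed FPKM (%, log axis) held by 15 lineage lists, with a symbol per PBS library and a bar for the mean. Globin, neutrophil late granule and mast cell, basophil and eosinophil lists come first, in that order, in every library, and the stromal, plasma cell and macrophage lists show PBS1 to the right of the others.

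The remaining erythroid genes were abundant and were highest in PBS1. The 20 genes of haem synthesis and iron handling all reached 1 FPKM in every library and held 1.34%, 0.904% and 0.763% of summed FPKM in PBS1, PBS2 and PBS3. PBS1 was the highest library for 17 of the 20, against 48.8% of the 11358 genes with enough counts. Alas2, the erythroid enzyme that starts haem synthesis, was an exception, with 889 FPKM in PBS1, 558 in PBS2 and 966 in PBS3. Tfrc, the transferrin receptor that brings iron into erythroblasts, had 191, 108 and 119 FPKM. The ferritin chains Ftl1 and Fth1, which store iron and are made by macrophages too, had 4849 and 2690 FPKM in PBS1 and at most 3193 and 1605 in the others. These ferritin genes were the most abundant members and made up most of the list's share in every library, and the share without them is not given here. Of 17 red cell membrane genes with enough counts, all 17 were highest in PBS1, among them Slc4a1 (band 3, the anion exchanger) with 903, 608 and 609 FPKM and Aqp1, a water channel, with 327, 184 and 180 FPKM. The globin share was 30.9%, 25.1% and 44.1%, and it enters the total behind every other share. With globin left out of the total, the haem and iron list held 1.94%, 1.21% and 1.37% and the membrane list 0.765%, 0.543% and 0.613%. On that total PBS2 was the lowest library for both lists, as it was for globin, and PBS1 the highest, where PBS3 was highest for globin. In bulk RNA, fewer cells of a type and less RNA per cell cannot be told apart, here and for every list that follows.

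Neutrophil late granule genes were the next most abundant group. S100a9 and S100a8, which form calprotectin, had 11019 and 8220 FPKM in PBS1, 19901 and 17590 in PBS2 and 14722 and 13617 in PBS3. Lyz2, the lysozyme of granulocytes and macrophages, was more even, with 10910, 14967 and 13160 FPKM. The 23 matched genes of the list held 6.81% ± 2.25 of summed FPKM (SD, n = 3). S100a9, S100a8 and Lyz2 made up most of that share in every library, and the share without them is not given here. The median of the members' means, 205 FPKM, lay at the 97.8th percentile of all listed genes. PBS2 was the highest library for 20 of the 21 members with enough counts and PBS1 the lowest for 18, against 42.8% and 30.1% of all 11358 genes. Lcn2, the siderophore-binding lipocalin of specific granules, had the widest ratio between libraries among these 21, 5.32, with 15.3, 81.4 and 50.6 FPKM. Ngp, a neutrophil granule protein, had 956, 4342 and 2449 FPKM, and Camp, the cathelicidin precursor, had 831, 2607 and 1790 FPKM. Retnlg, a resistin-like gene of neutrophils, had the same library order with a narrower gap, at 2245, 2858 and 2311 FPKM, while Mmp8, neutrophil collagenase, was lowest in PBS3, at 1047, 1118 and 935 FPKM. Ltf, the lactoferrin gene of specific granules, was at most 0.05 FPKM, and Arg1, arginase, at most 0.04 FPKM.

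Most primary granule genes, which mark the promyelocyte, were lower in PBS1 than in the other libraries. Mpo, myeloperoxidase, had 109 FPKM in PBS1, 665 in PBS2 and 586 in PBS3. Elane, neutrophil elastase, had 56.7, 330 and 295 FPKM, and the serine proteases Ctsg and Prtn3 had 85.2, 488 and 472 FPKM and 24.2, 156 and 135 FPKM. PBS2 and PBS3 were close to each other for all 4 and PBS1 lay far below both. PBS1 was the lowest library for 10 of the 13 members with enough counts, against 30.1% of all 11358 genes. Of the 13, 3 were highest in PBS1. Among these 3 were Cd63, a lysosomal membrane protein found in many cells, with 286, 240 and 219 FPKM, and Igsf6 with 62.65, 48.71 and 42.96 FPKM. Mpo was present at 0.0133 of the level of S100a8 in PBS1 and at 0.0378 and 0.043 in PBS2 and PBS3.

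Rat neutrophil defensins, small cationic peptides packed into granules, differed most in share between rats among the neutrophil lists. Defa5 had 591 FPKM in PBS1, 4628 in PBS2 and 3831 in PBS3, RatNP-3b had 529, 4614 and 3752 FPKM and Np4 had 621, 4224 and 3441 FPKM. Defa11 was lower throughout, at 15, 149 and 133 FPKM. The 6 matched genes held 0.229% of summed FPKM in PBS1, 1.85% in PBS2 and 1.29% in PBS3, an 8.07-fold range, and the mean share was 1.12% with PBS1 and 1.57% without it. Defa7 and Defa10 were listed in PBS2 alone, at 0.51 and 0.82 FPKM. Defa5 and RatNP-3b kept a ratio between 1.00 and 1.12, and whether copies of this multigene family share reads in these counts was not tested. The promoters of RatNP-3b and Np4, which had the same library order, are shown as the 150 bases before each start on the minus strand of GRCr8 at chr16:77248978-77249127 (RatNP-3b) and chr16:77199643-77199792 (Np4). Their 250-base windows were 91.5% identical over 234 aligned columns, and capitals again mark CCAAT, while the other motifs searched were not found in these letters.
RatNP-3b: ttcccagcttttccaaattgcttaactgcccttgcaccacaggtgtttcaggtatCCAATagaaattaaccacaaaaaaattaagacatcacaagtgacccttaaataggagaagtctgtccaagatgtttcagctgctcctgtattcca
Np4: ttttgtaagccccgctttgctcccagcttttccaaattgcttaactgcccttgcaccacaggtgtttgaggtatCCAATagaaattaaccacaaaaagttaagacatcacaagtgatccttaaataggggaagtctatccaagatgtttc

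Eosinophil, basophil and mast cell genes were the third lineage list by share in every library, at 2.27%, 1.95% and 1.47% of summed FPKM, and eosinophil granule genes made up most of it. Prg2, eosinophil major basic protein, had 10876, 8285 and 7336 FPKM and ranked 8 among all genes. Epx, eosinophil peroxidase, had 2356, 1507 and 1287 FPKM, Prg3, a relative of Prg2, had 1828, 1410 and 1267 FPKM, and Ear11, an eosinophil-associated ribonuclease, had 811, 442 and 369 FPKM. All 4 were highest in PBS1 and lowest in PBS3. Rnase2, another ribonuclease gene of the list, did not share that order, with 62.05, 88.32 and 81.45 FPKM. Alox15, also of the list, was highest in PBS3, with 82.4, 88.2 and 114 FPKM. Ccr3, the eotaxin receptor of eosinophils, had 46.6, 14.4 and 15.1 FPKM and was also highest in PBS1. The basophil protease genes ran the other way, Mcpt8 with 232, 842 and 735 FPKM and Mcpt8l2 with 62, 238 and 210 FPKM, and so did Hdc, which makes histamine, with 10.6, 29 and 31 FPKM. Mast cell genes lay below the leading eosinophil genes, Cpa3, carboxypeptidase A3, with 176, 135 and 100 FPKM and a CV (SD over mean) of 27.7%, and Cma1, chymase, with 135, 144 and 111 FPKM and a CV of 13.1%. The ratio of Prg2 to Cpa3 stayed between 61.3 and 73.2. Fcer1a, the alpha chain of the IgE receptor, was among the steadiest members at 13.8 ± 0.985 FPKM (SD, n = 3). Of the 24 list members with enough counts, 9 were highest in PBS1, 11 in PBS2 and 4 in PBS3. Over all 11358 genes these shares were 48.8%, 42.8% and 8.39%.

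Macrophage, MHC class II, plasma cell and stromal genes shared a pattern in which PBS1 was high and PBS2 and PBS3 were alike. C1qa, a complement chain made by tissue macrophages, had 769 FPKM in PBS1, 209 in PBS2 and 188 in PBS3, and Cd163, the receptor for haemoglobin bound to haptoglobin, had 116, 30.1 and 36.5 FPKM. Vcam1, an adhesion molecule of island macrophages and stroma, had 208, 60.8 and 73.7 FPKM, and Hmox1, which degrades haem, had 1063, 281 and 289 FPKM. Genes of circulating monocytes did not share it, Ccr2 at 35.1, 37.2 and 34.5 FPKM and Vcan at 3.81, 5.32 and 5.43 FPKM. Of the 21 genes of the monocyte and macrophage list with enough counts, 14 were highest in PBS1 and 6 were lowest there. Over all 11358 genes these shares were 48.8% and 30.1%. The list held 0.427%, 0.196% and 0.158% of summed FPKM.

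Cd74, the invariant chain of MHC class II, had 2561 FPKM in PBS1, 901 in PBS2 and 876 in PBS3, and RT1-Da, a class II alpha chain, had 427, 126 and 150 FPKM. Of the 12 members of the MHC class II and dendritic cell list with enough counts, 11 were highest in PBS1, against 48.8% of all 11358 genes. All 9 plasma cell genes were highest there too. Mzb1, a chaperone of antibody-secreting cells, had 198, 39.4 and 31.2 FPKM, and Tnfrsf17, the receptor BCMA, had 33.3, 3.84 and 3.58 FPKM.

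Most stromal and endothelial genes were far higher in PBS1 than in the other libraries. Cxcl12, the marrow chemokine that retains progenitors, had 144 FPKM in PBS1, 2.21 in PBS2 and 3.44 in PBS3, and Sparc, a matrix protein, had 47.2, 2.61 and 2.16 FPKM. Emcn and Cdh5, both of endothelium, had 15.2 and 7.46 FPKM in PBS1 and at most 0.63 in the others. Over the list, 14 of 15 genes with enough counts were highest in PBS1, against 48.8% of all 11358 genes. The exception, chosen after its value was seen, was Tie1 with 9.25, 10.5 and 8.72 FPKM. Pecam1, also picked after its value was seen, was highest in PBS1 by a narrow gap, with 27.98, 26.74 and 22.47 FPKM. The 23 matched genes held 0.0451% of summed FPKM in PBS1, 0.00778% in PBS2 and 0.00598% in PBS3, so the mean share was 0.0196% with PBS1 and 0.00688% without it. These values of PBS1 stand beside every list above on which it was high or low, and their part in those results was not tested.

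B lineage transcripts were present at moderate level in all 3 rats and ranked 10 of 15 lists in each. All 24 matched genes reached 1 FPKM in every library, and the list held 0.131%, 0.180% and 0.133% of summed FPKM. Pax5, the factor that fixes B cell identity, had 31.9, 37.2 and 33.4 FPKM and was even. Of the 24, PBS2 was the highest library for 18 and PBS1 for 5, and PBS1 was the lowest for 16. Over all 11358 genes these shares were 42.8%, 48.8% and 30.1%. The genes of early B cell development named here did not all share that order. Rag1, a chain of the recombinase, was lowest in PBS1, with 1.4, 7.06 and 6 FPKM, as was Ebf1, an early B cell factor, with 11.8, 23.7 and 19.7 FPKM. Igll1, of the surrogate light chain, was highest there, with 20.2, 17.5 and 15.4 FPKM, as was Il7r, the interleukin 7 receptor, with 14.0, 7.21 and 8.89 FPKM, and Vpreb1, also of the surrogate light chain, lay between the others, with 11.3, 13.8 and 8.72 FPKM. Ms4a1 (CD20), which is gained later, was highest in PBS1, with 51.1, 20.3 and 20.7 FPKM. T and NK cell genes were scarce, with a list median of 2.1 FPKM. Cd3e, a signalling chain of the T cell receptor complex, had 2.53, 5.57 and 7.29 FPKM, and the most abundant members, Nkg7 and Cd4, are also carried by promyelocytes or by rat macrophages and had the library order of those lists, Nkg7 with 44.3, 171 and 158 FPKM and Cd4 with 165, 57.6 and 55.6 FPKM.

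Megakaryocyte genes had a list median of 15.9 FPKM, and their median CV of 15.2% lay beside 14.9% for all 11358 genes. Plek, a platelet kinase substrate found in other blood cells too, had 88.1, 72.4 and 79.4 FPKM, and Pf4, platelet factor 4, had 92.4, 54.5 and 63.4 FPKM. P2ry12, the platelet ADP receptor, which macrophage lineage cells can carry too, varied most, with 7.64, 1.53 and 2.44 FPKM and a CV of 85.2%. All 16 matched genes reached 1 FPKM in every library, and they held 0.0756% ± 0.00937 of summed FPKM (SD, n = 3).

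Loci that the authors numbered rather than named carry part of these lineages, and they are read here through the best protein match given in the authors' deposited table, which is a likeness and not an identification. They were looked up after their values were seen, and 3575 of the 3647 have such a match. Immunoglobulin chains are the match of 13 loci in the authors' deposited table. All 13 were highest in PBS1, against 37.6% of the 2198 numbered loci with enough counts. Their summed level was 6227 FPKM in PBS1, 1244 in PBS2 and 1077 in PBS3. Among them, by the authors' deposited table, BGI_novel_G000934 matches an Ig lambda chain and had 2477, 251 and 239 FPKM, BGI_novel_G003219 matches the constant region of Ig gamma-2B and had 1214, 128 and 73.8 FPKM, and BGI_novel_G003225 matches Igh-6, the mu heavy chain, and had 822, 461 and 399 FPKM. The immunoglobulin loci thus had the order of the plasma cell genes, and the gap between PBS1 and the other libraries was wider for these lambda and gamma-2B loci than for the mu chain locus. The 3 loci that match eosinophil cationic protein in the authors' deposited table summed to 1841, 959 and 798 FPKM, in the order of the named eosinophil genes. By the same authors' deposited table, BGI_novel_G001620 matches alpha-defensin 7 and had 28, 276 and 224 FPKM, as low in PBS1 as the named defensins, BGI_novel_G000143 matches the alpha chain of the B cell antigen receptor complex and had 343, 250 and 202 FPKM, and BGI_novel_G000015 matches the progenitor factor Myb and had 19.3, 30.6 and 24.1 FPKM.

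Measured against the selection, the transcripts of stem and early progenitor cells were detected but formed a small part of the pool. Kit, the selected receptor, had 12.9 FPKM in PBS1, 14.7 in PBS2 and 10.6 in PBS3, and its mean of 12.7 ± 2.02 FPKM (SD, n = 3) ranked 5132 of 16740 genes. Cd34, a surface protein of human and many rodent progenitors, had 0.52, 0.66 and 0.62 FPKM. Gata2, a factor of stem cells, mast cells and basophils, had 14.7, 25.7 and 23 FPKM, and Flt3, a receptor of multipotent and lymphoid progenitors, had 3.85, 4.18 and 3.81 FPKM. Cd48, carried by progenitors and by most mature leukocytes, was the most abundant member at 158 ± 11.2 FPKM, while Hoxb4, Slamf1, Mycn and Mecom stayed at or below 1 FPKM. The 22 matched genes held 0.0761%, 0.0846% and 0.0631% of summed FPKM, and with globin left out of the total their share was 0.110%, 0.113% and 0.113%, nearly the same in each rat. The defining marker of the selection was thus present in every library, beside globin and late granule transcripts that maturing cells carry. No unselected marrow was available here to measure the enrichment.

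Transcription factors of both the erythroid and the myeloid programme were among the most abundant regulators. Klf2, a factor of leukocyte quiescence, led with 467, 1125 and 755 FPKM, and Klf6, a widely expressed relative, followed at 243 ± 18.1 FPKM (SD, n = 3). Nfe2, which drives globin and platelet genes, had 172, 194 and 175 FPKM, and Spi1 (PU.1), the myeloid and B cell factor, had 145, 204 and 160 FPKM. Klf1, the erythroid factor, had 146, 125 and 116 FPKM, and Gata1, the erythroid and megakaryocyte factor, had 63.8, 52.2 and 51.1 FPKM. Within libraries, Nfe2 lay above Spi1 in PBS1 and PBS3 and below it in PBS2. The ratio of Klf1 to Spi1 was 1.0 in PBS1, 0.612 in PBS2 and 0.724 in PBS3, while Nfe2 lay above Klf1 in every library. The ratio of Gata1 to Spi1 was 0.439 in PBS1, 0.256 in PBS2 and 0.32 in PBS3, and that of Gata1 to Gata2 was 4.35, 2.03 and 2.22. Of 56 factors with enough counts, 38 were highest in PBS2, against 42.8% of all genes, among them Cebpb, of the late granulocyte, with 49.8, 121 and 86.6 FPKM, and Cebpa, of the early one, with 28.8, 49.9 and 39 FPKM.

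**Figure D3:**
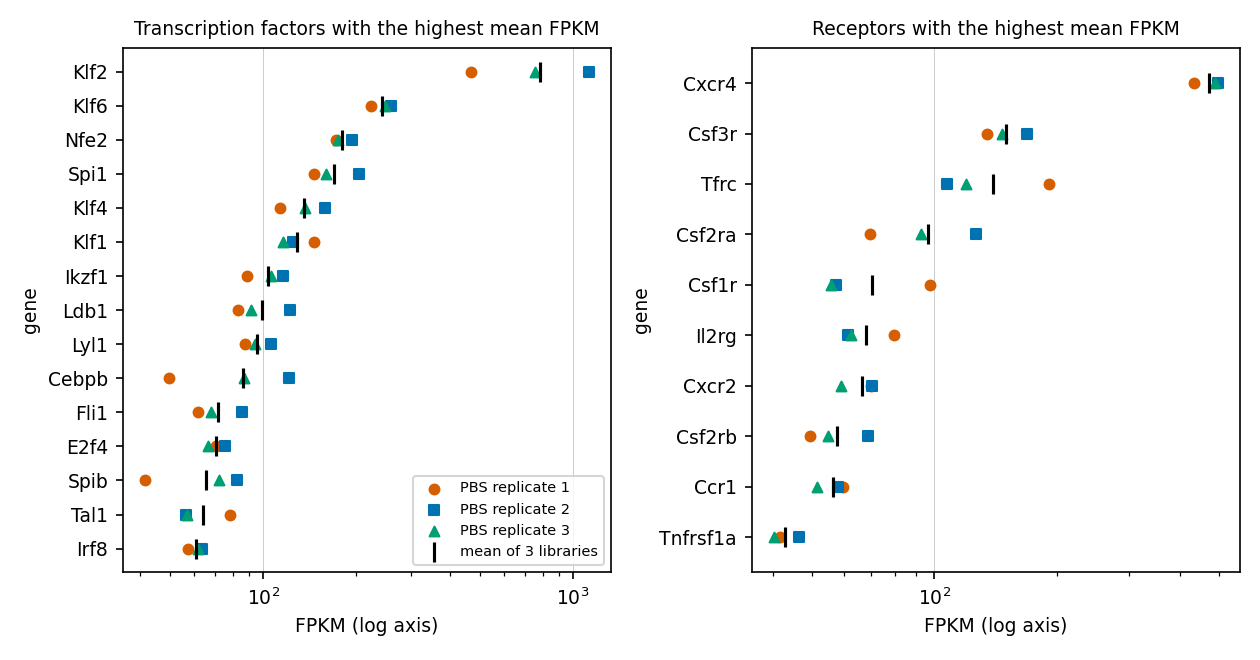
FPKM (log axis) of the 15 blood transcription factors and 10 receptors with the highest means, with a symbol per PBS library and a bar for the mean. Klf2 and Cxcr4 lead their lists. PBS1 is the highest library for Klf1, Tal1, Tfrc, Csf1r, Il2rg and Ccr1. It is the lowest for most of the factors shown, among them Klf2, Cebpb and Spib, and for the receptors Cxcr4, Csf3r, Csf2ra and Csf2rb.

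Receptor transcripts spread about as widely between rats as genes in general. Cxcr4, the receptor for Cxcl12, had 435, 496 and 488 FPKM and was the most abundant of the 39 matched receptors. Csf3r, the G-CSF receptor of the neutrophil lineage, had 135, 169 and 147 FPKM, Csf2ra, a GM-CSF receptor chain, had 69.6, 127 and 92.9 FPKM, and Csf1r, the M-CSF receptor of monocytes and macrophages, had 97.4, 57.3 and 55.6 FPKM. Epor, the erythropoietin receptor, had 41.6, 36.2 and 28.3 FPKM, above Kit in every library. The median CV of the 38 receptors with enough counts was 15.6%, beside 14.9% for all 11358 genes.

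Proliferation genes were present in every library, and most varied little between rats. All 30 genes of G1/S and DNA replication and all 23 matched genes of mitosis reached 1 FPKM in every library. Pcna, the replication clamp, had 209, 221 and 201 FPKM, Ube2c, a mitotic ubiquitin ligase partner, had 203, 206 and 181 FPKM, and Mki67, the proliferation antigen Ki-67, had 189, 133 and 125 FPKM. Mitotic genes had a median CV of 7.58%, the lowest of the lists given here, and those of replication 10.1%. Ccnd3 was the main D cyclin, at 139, 175 and 143 FPKM, and exceeded Ccnd2 by 4.29 to 11 times and Ccnd1 by 30.9 to 108 times, the lowest ratio of each in PBS1.

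Ribosomal protein genes held 9.35%, 9.20% and 7.09% of summed FPKM, with 80 of 84 at 1 FPKM or more in every library and a median CV of 9.18%. Nuclear genes of the respiratory chain and ATP synthase held 1.07% ± 0.156 (SD, n = 3), with a median CV of 11.1%. Immediate early genes, which are switched on within minutes of a stimulus, were abundant in all 3 libraries and highest in PBS2 for 14 of 18, against 42.8% of all genes. Fos had 1322, 1320 and 820 FPKM, Egr1 had 435, 1034 and 476 FPKM, Junb had 307, 756 and 378 FPKM and Zfp36, which destabilises cytokine mRNA, had 939, 2134 and 1277 FPKM. Their median of 360 FPKM lay at the 98.7th percentile of all genes. Heat shock and chaperone genes ran against them, with 16 of 16 highest in PBS1, against 48.8% of all genes. Hspa8 had 861, 593 and 648 FPKM and the secretory chaperone Hsp90b1 had 304, 149 and 164 FPKM.

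The spread between the 3 rats was moderate for most genes and narrowed most when PBS1 was left out. The median CV over 11358 genes with a mean of at least 1 FPKM and 50 counts was 14.9%, with 50% of genes between 9.32% and 24.9%, and counting alone would give 4.66% at their median count. The median CV was 18.5% between 1 and 10 FPKM, 12.6% between 10 and 100, 14.1% between 100 and 1000 and 15.9% above 1000, although the counting part fell from 7.16% to 0.689% over these classes. Without PBS1 the median CV of the remaining pair was 9.52%, and without PBS2 or PBS3 it was 14.1% or 14.7%. The biological coefficient of variation that edgeR estimated from the counts was 26.8% with all 3 libraries and 15.2% without PBS1. A total of 527 genes, 4.64%, were at least 2-fold above the middle library in PBS1, against 79 in PBS2 and 37 in PBS3, and 298, 95 and 109 genes were at least 2-fold below it.

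**Figure D4:**
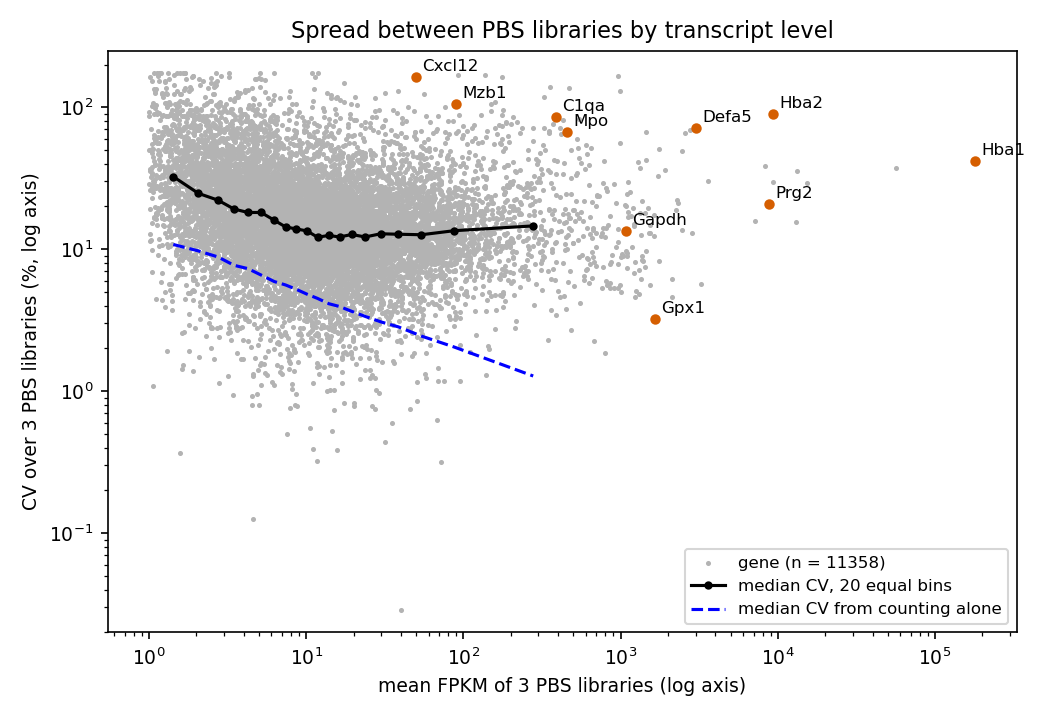
CV over the 3 PBS libraries (%, log axis) against mean FPKM (log axis) for 11358 genes, with the median of 20 equal bins (black line) and the median expected from counting alone (blue dashes). The black line levels off between 12.2% and 14.6% above 10 FPKM while the blue line falls to 1.28%, and the named genes Cxcl12, Mzb1, C1qa, Mpo, Defa5 and Hba2 lie far above it.

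The steadiest genes were taken as the 15 smallest CVs among genes with at least 10 FPKM and 200 counts on average. Nrros, a leukocyte regulator of oxidase and TGF-beta, had 39.96, 39.96 and 39.94 FPKM, Gsta4, a glutathione transferase, had 31.6, 31.6 and 31.9 FPKM and Polr2g, a subunit of RNA polymerase II, had 68, 68.3 and 67.4 FPKM, with CVs of 0.0289%, 0.437% and 0.628% that lie under the 2.53%, 3.96% and 3.37% that counting gives at their depth, as the extremes of a long list can. Gapdh and Actb, often used as references, varied more, with 951, 1231 and 1039 FPKM and 3173, 2920 and 2438 FPKM. Of the 15 genes with the largest CV, 14 were highest in PBS1, against 48.8% of all 11358 genes. The exception was Acod1, which makes itaconate in activated myeloid cells, with 1.01, 33.2 and 8.91 FPKM. Among the 14 were Cxcl12, Sparc, Gas6, Fabp4, Mzb1, Derl3, Txndc5 and Tnfrsf13b, beside Eif2s3y and Ddx3.

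**Figure D5:**
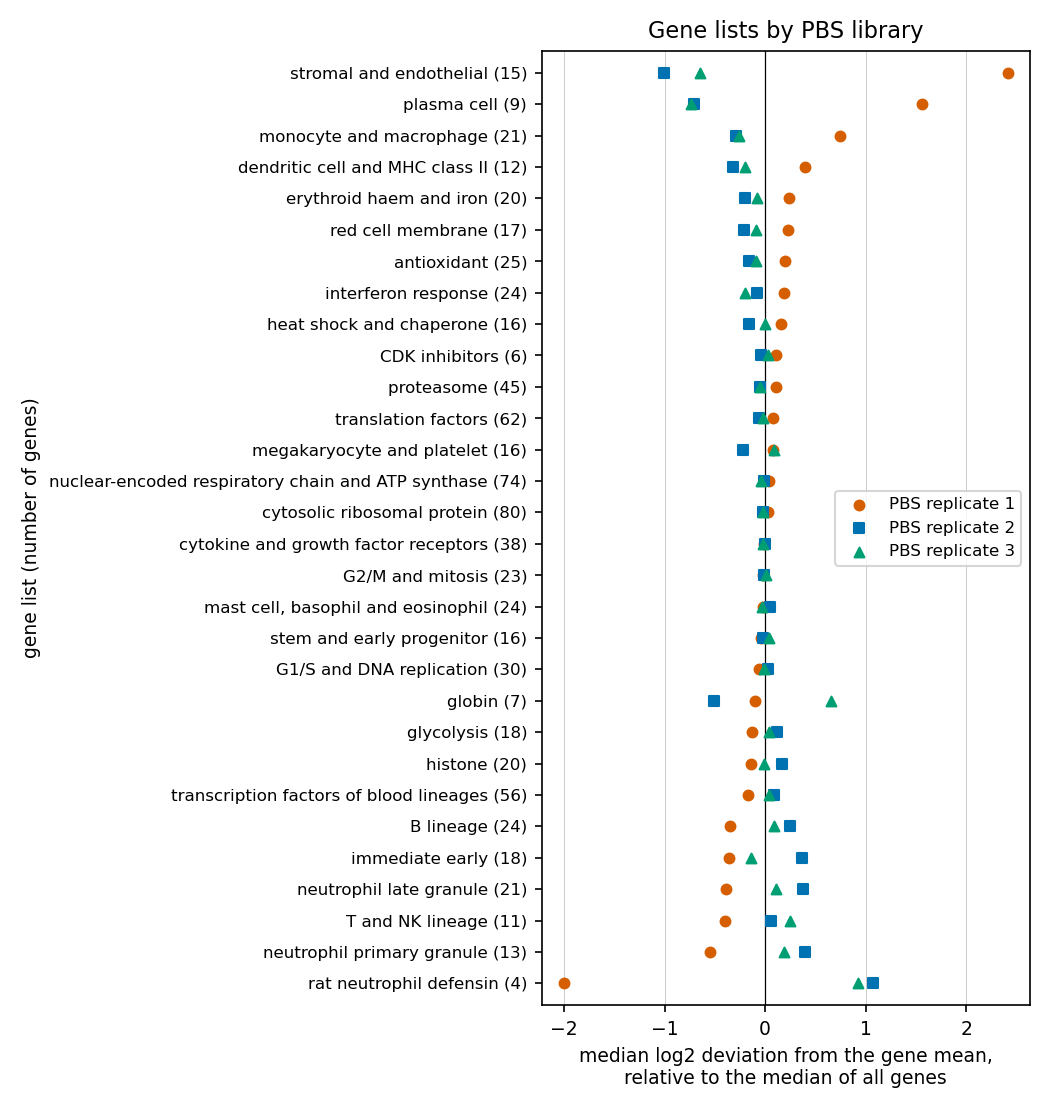
Median log2 deviation of each gene list from its genes' means, relative to the median of all genes, with a symbol per PBS library and the number of genes in brackets. PBS1 lies at 2.41 for stromal and endothelial genes and at 1.56 for plasma cell genes, and at -2.0 for defensins, and PBS3 lies at 0.65 for globin.

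Set against the median of all genes, PBS1 lay at 2.41 on the log2 scale for stromal and endothelial genes, at 1.56 for plasma cell genes and at 0.74 for macrophage genes, and at -2.0 for defensins and -0.55 for primary granule genes. PBS2 lay at 1.07, 0.40 and 0.37 for defensin, primary granule and immediate early genes. Lists for ribosomal proteins, the respiratory chain, receptors, mitosis and replication stayed within 0.06 of 0 in all 3 libraries. Scaling by edgeR's TMM in place of FPKM left the PBS1 values at 2.51 for stromal, 1.45 for plasma cell and -2.0 for defensin genes. FPKM itself placed the median gene 0.10 lower in PBS3 than its mean, 0.06 higher in PBS1 and 0.04 higher in PBS2, a shift that TMM removed. The globin share was 30.91% in PBS1, 25.11% in PBS2 and 44.15% in PBS3, and its part in the shift was not tested.

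Leaving PBS1 out must move most the lists on which it stood apart, so the values without it are given as description only. From PBS2 and PBS3 alone, 11712 genes reached 1 FPKM in both, the top 10 genes held 41.9% of summed FPKM, globin 34.6%, late granule genes 7.73%, primary granule genes 0.375% and the mast cell, basophil and eosinophil list 1.71%. The haem and iron list held 0.834%, the red cell membrane list 0.374%, the B lineage list 0.157%, the stem and early progenitor list 0.0739%, the megakaryocyte list 0.0711% and the T and NK list 0.0372%. The share with and without PBS1 was 0.260% and 0.177% for the monocyte and macrophage list, 0.291% and 0.181% for the MHC class II and dendritic cell list and 0.0403% and 0.0219% for the plasma cell list. The globin share moved further when PBS3 was left out, from 33.4% to 28.0%, than when PBS1 was. Globin, late granule and mast cell, basophil and eosinophil genes were the 3 largest lists in each of the 3 libraries.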

How the data were processed

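Poly(A) RNA-seq libraries of c-kit+ marrow from 3 PBS rats were used, 1 library per rat per the series design. Each gene's expected count and FPKM were deposited by the authors, per the file headers. The former is an estimate of reads that need not be whole, and the latter a level per length and depth. Per the submitters' processing notes, the build was rn6 and the tools include RSEM, HISAT and GATK, their roles and versions not given in the sources used here. Expected counts total 15707010 to 16260317 per library, so that a count of 0 allows up to 3 counts, 0.184 to 0.191 CPM, for counting error only. A gene not listed in a library was set to 0. Symbols came from the authors' table and, for names not found there, from RefSeq (GRCr8, 13019 of 13093 Entrez IDs found), whose gene coordinates are not given because the build differs. The files hold 3647 loci numbered by the authors, with 7.36% to 8.36% of counts.

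No group was compared, so no test was run. CVs were computed for genes with a mean of at least 1 FPKM and 50 counts, log2 deviations with 0.1 FPKM added, and dispersion with edgeR 4.0.16 in R 4.3.3 (TMM, filterByExpr) on rounded counts, after a run on simulated data. DESeq2 1.42.0 gave size factors for an alternative. Named genes are the 30 highest means, the 3 highest members of each list, fixed lineage and Y-linked genes, the 15 largest and smallest CVs, and the 15 factors and 10 receptors with the highest means. Other list members are named after inspection of their values. Members and lists were chosen with earlier results of these data known. Some genes stand in more than 1 list, among them Nkg7, Cebpe, Fth1, Ftl1, Flt3 and Irf4. Replicate pairs differed by far more than sampling noise (chi-square per degree of freedom 64.0 to 98.1), so none were merged. List members that found no gene under their name were not analysed here, except through the protein matches of numbered loci in the authors' deposited table. Promoters were compared by global alignment with free ends (Biopython 1.88).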

Additional observations from a re-analysis of the deposited data

How the results depend on the processing

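FPKM corrects for transcript length and expected counts do not. As shares of expected counts, the top 10 genes by CPM held 18.01%, globin 14.49%, the neutrophil lists together 4.625% (8.237% of FPKM) and the B lineage list 0.2282%. With globin left out of the total, the top 10 held 14.0%, the neutrophil lists 12.38% and the B lineage list 0.2231%. The biological coefficient of variation was 40.4% without a filter on low counts. The mean pairwise correlation of 0.9733 was 0.9529 with 0.1 FPKM added and 0.9588 above a mean of 1 FPKM. Leaving out each replicate in turn gave 9.523% to 14.73% for the median CV, 15.2% to 32.0% for the biological coefficient of variation and 0.9638 to 0.9877 for the correlation, with the lowest spread and the highest correlation without PBS1. It moved 66 of 532 named levels by more than 1.5 times without PBS1, 9 without PBS2 and 6 without PBS3. A mean of 3 libraries always stays within its SD when 1 is dropped, so list shares that do so show no stability. Between 7719 and 13798 genes were detected at thresholds of 5 and 0.1 FPKM. Left-out libraries and the globin-free total for lists other than globin, neutrophil and B lineage were chosen after seeing the data. No paired analysis was possible because only 1 group was described.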

Other observations

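Further genes with the level pattern of the macrophage list were found outside it, picked after inspection of their values. Fcna, a ficolin of macrophages, had 831 FPKM in PBS1, 239 in PBS2 and 221 in PBS3. Selenop, a selenium carrier, had 377, 80.8 and 79 FPKM, and Aif1, an actin-binding protein of macrophages, had 357, 90.5 and 82.8 FPKM. Slc40a1, the iron exporter ferroportin, had 165, 46.8 and 45 FPKM. PBS1 was the highest library for each, and PBS2 and PBS3 were close to each other.

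Other numbered loci were uneven as well. BGI_novel_G000925 had 2804 FPKM in PBS1, 28.9 in PBS2 and 56.8 in PBS3. BGI_novel_G000885 ran the other way, with 0 in PBS1, 152 in PBS2 and 128 in PBS3. The 2198 numbered loci with enough counts had a median CV of 24.3%, beside 14.9% for all 11358 features. Features listed in a single library numbered 539 in PBS1, 323 in PBS2 and 279 in PBS3, with a median of 0.09 FPKM in each, and 52, 29 and 27 of them reached 1 FPKM.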
